A study of Mus musculus with 6 samples.

Results

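The proteasome subunit genes were read out of the RNA-seq comparison of TP-3654 with vehicle in blood stem and progenitor cells of Jak2-mutant mice. They were chosen by symbol and a count minimum, with earlier results of these data known. The rule took every gene named Psma, Psmb, Psmc, Psmd, Psme, Psmf or Psmg with a number. It left out the interferon-induced Psmb8, Psmb9 and Psmb10 and asked for at least 10 counts in each library. A total of 44 genes matched, of 15845 in the count table, and all 44 met the count minimum and were tested. They comprised 15 core genes (8 Psma and 7 Psmb), 20 lid and base genes (6 Psmc and 14 Psmd), 4 activators (Psme), the inhibitor Psmf1 and 4 assembly chaperones (Psmg). The mice were C57BL/6, homozygous for the Jak2 V617F allele, written Jak2VF/VF, and carried Mx1Cre, a recombinase gene under an interferon-responsive promoter, so treated and control animals shared both alleles. The treated group received TP-3654, a Pim1 inhibitor per the title of the series, for 6 weeks at a daily 150 mg/kg, and the control group received vehicle, given as PBS by the labels. Each group had 3 libraries, described as biological replicates, made from poly(A) RNA of sorted bone marrow LSK cells, which lack lineage markers and carry Sca1 and c-Kit. Mice without the Jak2 allele or the recombinase were not analysed here.

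The proteasome is the barrel-shaped protease that degrades proteins tagged with ubiquitin. Its core particle is a stack of outer alpha rings (Psma genes), which gate entry, and inner beta rings (Psmb genes), which hold the cutting sites. A regulatory particle caps the core, with a base of ATPases (Psmc genes) that unfold substrates and a lid that removes ubiquitin, while Psme proteins are alternative caps and Psmg proteins help assemble the core. Blood stem cells are known to depend on tight control of protein synthesis and degradation.

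No proteasome gene passed the test, and the differences were small and mostly downward. With edgeR and a Benjamini-Hochberg adjusted p under 0.05 over all genes, 0 of 44 proteasome genes were called, as were 0 of 13149 genes tested (0%), with 0.0701 as the lowest adjusted p. With an unadjusted p under 0.05, 1 proteasome gene (Psmb4) was lower, beside 6.84% of all genes, and 0 were higher, beside 10.2% of all genes. The log2 fold change, TP-3654 minus vehicle, lay below 0 for 35 of 44 proteasome genes, 79.5% of them, beside 47.9% of all genes. Its median was -0.14 over the proteasome genes and 0.01 over all genes. All 3 treated libraries lay below all 3 vehicle libraries for 11 proteasome genes, Psma1, Psma6, Psmb1, Psmb2, Psmb4, Psmd6, Psmd8, Psmd10, Psmd14, Psmg3 and Psmg4, at a background of 11.6% of all genes. None of the 44 lay wholly above, at a background of 14.3%. DESeq2 called 0 of the 44 as well, while it called 657 genes (4.92%), and limma-voom called 0 proteasome genes and 0 genes in all. At an unadjusted p under 0.05, DESeq2 had 3 proteasome genes lower (background 7.16%) and 1 higher (8.48%), and limma-voom had 2 lower (7.25%) and 0 higher (10.1%).

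Library totals ran from 20582057 to 25315596 counts, and levels below are CPM, meaning counts divided by TMM-adjusted library totals, and follow the order of libraries 1 to 3. TP-3654 library 3 stood apart from the others: on the first principal component, which held 51.2% of the variance, it scored 70.7, the other treated libraries 0.97 and -0.11, and the vehicle libraries between -24.8 and -22.3. Markers of cell types and mitosis also differed between the groups, although edgeR called 0 of them. DESeq2 called 6 blood stem cell, 4 granulocyte-monocyte progenitor, 2 mitosis and 1 T and NK cell genes, beside 4.92% of all genes. At an unadjusted p under 0.05 in edgeR, the background was 6.84% of all genes lower and 10.2% higher. Of 10 granulocyte-monocyte progenitor markers, 7 were lower at an unadjusted p under 0.05, and their summed level was 2442 to 7689 CPM with TP-3654 and 10495.5 to 13766 CPM with vehicle. Of 10 blood stem cell markers, 6 were higher at that threshold, and their sum was 682 to 783 CPM with TP-3654 and 518 to 634 CPM with vehicle. Of 10 mitosis genes, 5 were lower, and their sum was 1876 to 2560 CPM with TP-3654 and 2693 to 2807 CPM with vehicle. Sums of lineage markers overlapped between groups for mature neutrophils and monocytes (6.80 to 33.4 CPM with TP-3654 and 13.0 to 140.1 CPM with vehicle). They also overlapped for erythroid cells (599 to 1179.97 CPM and 567 to 1174 CPM in the same order), megakaryocytes (318 to 360.3 CPM and 291 to 342 CPM) and B cells (29.3 to 31.3 CPM and 29.1 to 45.3 CPM). For T and NK cells they did not overlap, at 139 to 223 CPM with TP-3654 and 227 to 268 CPM with vehicle. Of the 4 T and NK genes tested (7 listed), however, 1 was higher and 1 lower at an unadjusted p under 0.05 in edgeR. Their median log2 fold change was 0.31. The sums took in tested genes only, which were 7 of 9 listed for neutrophils and monocytes, 8 of 10 for erythroid cells, 5 of 6 for megakaryocytes and 3 of 6 for B cells. Summed sort markers Kit and Ly6a, the gene of Sca1, were at 497 to 649 CPM with TP-3654 and 405 to 444 CPM with vehicle. Most of that sum was Kit, at 436, 492 and 581 CPM with TP-3654 and 365, 377 and 375 CPM with vehicle. Ly6a alone overlapped, at 60.5, 60.5 and 68.3 CPM with TP-3654 and 40.0, 46.7 and 69.2 CPM with vehicle. In sorted bulk RNA, fewer cells of a type and less RNA per cell cannot be told apart, and the part of these shifts in the proteasome values was not tested.

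Several proteasome genes have near-identical copies elsewhere in the genome, and TP-3654 library 3 differed from the other treated libraries at some of them. It exceeded 1.5 times the mean of TP-3654 libraries 1 and 2 for 5 proteasome genes (background 7.67%): Psma8 6.87-fold, Psme2 4.62-fold, Psma3 4.16-fold, Psma5 2.0-fold and Psme1 1.82-fold. Sequence sharing was measured as the percentage of a gene's 31-base words that also occur at another annotated locus. Among all tested genes with a sharing value, the share past 1.5 times in this library was 4.27% of 5369 genes sharing at most 1%, 5.33% of 5596 genes sharing over 1% to 20%, and 23.8% of 1607 genes sharing over 20%. For vehicle library 1 against the other vehicle libraries, the same shares were 8.81%, 6.74% and 8.03%. Among the proteasome genes the counts were 1 of 17, 1 of 18 and 3 of 9, and the 1 in the lowest class was the sparsely counted Psma8. Other proteasome genes sharing over 20% did not pass 1.5 times in TP-3654 library 3. Psmb5, which shared 71.7% of its words, was at 0.997-fold, and Psmd9 was at 0.661-fold. Psmc1 was at 1.06-fold, Psma4 at 1.20-fold, Psmd2 at 1.22-fold and Psmb3 at 1.40-fold. The part of sequence copies in these values was not tested beyond these counts and the sum given next.

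**Figure D1:**
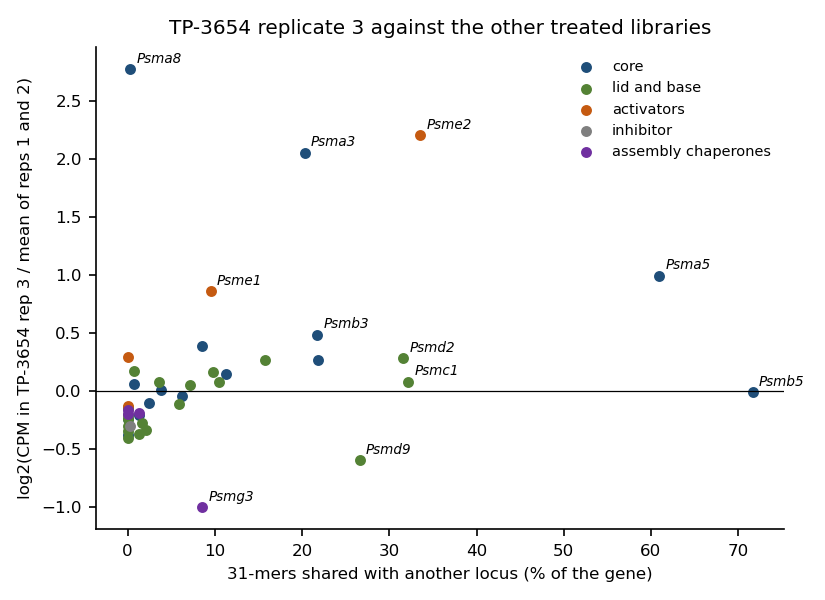
Each point is 1 of 44 proteasome genes. The x axis gives the percentage of its 31-base words shared with another locus, and the y axis the log2 ratio of CPM in TP-3654 replicate 3 to the mean of TP-3654 replicates 1 and 2. Most points lie near 0, with Psma8, Psme2, Psma3, Psma5 and Psme1 above.

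The clearest case was Psme2, whose product is the beta subunit of the interferon-inducible activator ring, and Psme2b, an intronless copy that has its own row in the count table. Psme2 lies on the minus strand of chromosome 14 and Psme2b on the minus strand of chromosome 11 (GRCm38). Over the 717 coding bases of Psme2 the genes are 99.3% identical, and their longest identical run is 311 bases.

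Psme2b held 5123, 6017 and 1258 raw counts in TP-3654 libraries 1 to 3, against 5476, 6379 and 7289 in vehicle libraries 1 to 3. Psme2 held 842, 918 and 3367 counts in those treated libraries, against 819, 886 and 989 in the vehicle libraries. Psme2 thus held 72.8% of the pair's counts in TP-3654 library 3, against 11.9% to 14.1% in the other 5 libraries. The sum of both rows was 276, 268 and 236 CPM with TP-3654, against 248, 327 and 379 CPM with vehicle, and TP-3654 library 3 had the lowest sum. Fitted with edgeR as 1 gene, the pair had a TP-3654 minus vehicle difference of -0.29 on the log2 scale (standard error, SE, 0.16, adjusted p = 0.371), whereas Psme2 alone had 1.07 (SE 0.73) and Psme2b alone -0.65 (SE 0.54).

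**Figure D2:**
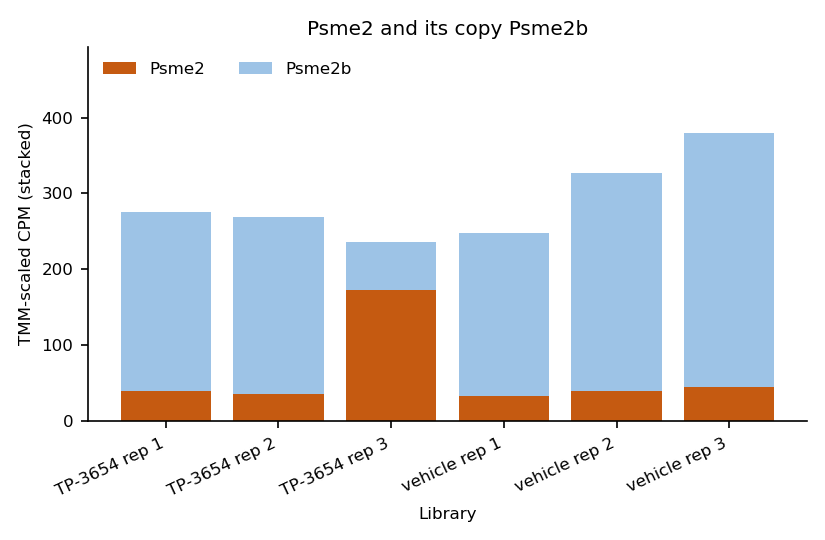
TMM-scaled CPM of Psme2 and Psme2b in each library, stacked, with the 3 TP-3654 libraries left of the 3 vehicle libraries. Psme2 takes 72.8% of the pair in TP-3654 replicate 3 and 11.9% to 14.1% in the others, and the stacks run from 236 to 379 CPM.

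Psma5, an alpha ring subunit on chromosome 3, shares 61.0% of its 31-base words with other loci and has a processed pseudogene, Gm8394, on chromosome 10. The longest identical run is 248 of 723 coding bases, and the window of coding bases 237 to 386, from GENCODE M21 transcripts (GRCm38) and written 5′ to 3′, differs at 1 base, in capitals, and is shown for how alike the loci are.
Psma5 (chr3:108256926-108279974): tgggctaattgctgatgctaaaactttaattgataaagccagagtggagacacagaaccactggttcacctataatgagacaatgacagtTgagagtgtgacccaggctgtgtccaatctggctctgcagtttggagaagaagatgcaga
Gm8394 (chr10:85313488-85314439): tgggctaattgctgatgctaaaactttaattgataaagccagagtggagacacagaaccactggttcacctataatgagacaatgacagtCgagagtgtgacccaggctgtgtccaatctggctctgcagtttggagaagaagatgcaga

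Psma5 measured 65.01, 65.3 and 130.2 CPM in TP-3654 libraries, against 68.2, 75.4 and 76.8 CPM in vehicle libraries. Psma3, another alpha ring subunit with an identical run of 662 of 765 coding bases in the pseudogene Gm13835, measured 36.2, 36.6 and 152 CPM in TP-3654 libraries, against 47.96, 41.7 and 38.7 CPM in vehicle libraries. In both genes TP-3654 libraries 1 and 2 were lower than every vehicle library and TP-3654 library 3 was higher than every one. Their log2 fold changes were 0.24 (SE 0.28) and 0.80 (SE 0.67) with all libraries, and -0.18 and -0.24 without TP-3654 library 3. These genes were named after their values were seen.

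Without TP-3654 library 3 the proteasome genes were more uniform and still none passed the test. The log2 fold change was below 0 for 42 of 44 genes, beside 49.6% of all genes, with a median of -0.13. The 2 above 0 were Psma8 at 0.86 and Psmf1 at 0.04. In that fit edgeR called 31 genes (0.232%) and 0 proteasome genes, whose adjusted p started at 0.480, and no proteasome gene reached an unadjusted p under 0.05 (background 5.27% lower and 7.28% higher). Groups did not overlap for 14 proteasome genes, all lower, beside 14.4% of all genes lower and 17.6% higher. Among the 17 proteasome genes sharing at most 1% of their words, 16 had a log2 fold change below 0 with all libraries, with a median of -0.16, beside 48.8% of the 5379 such genes fitted on their own. In that separate fit 1 of the 17, Psmb4, was lower at an unadjusted p under 0.05 (background 9.31%) and 0 were higher (background 12%).

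**Figure D3:**
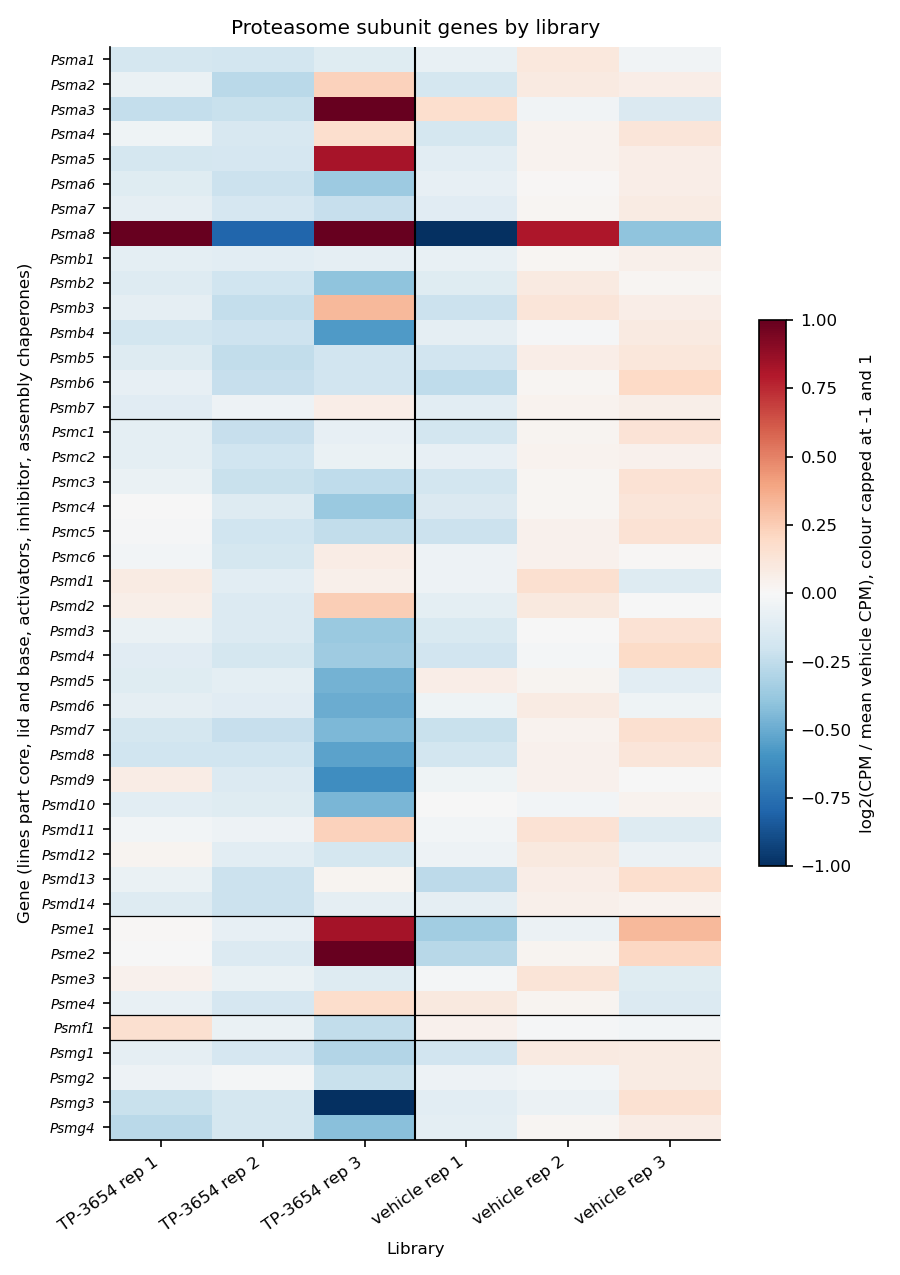
Log2 ratio of CPM to the vehicle mean for 44 proteasome genes (rows, by class) in the TP-3654 libraries, left, and the vehicle libraries, right; colours are capped at -1 and 1. Blue prevails in TP-3654 replicates 1 and 2 and in vehicle replicate 1, and red in vehicle replicates 2 and 3. TP-3654 replicate 3 holds both strong red (Psma8, Psma3, Psma5, Psme1, Psme2) and strong blue (such as Psmg3, Psmd9 and Psmb4).

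For the proteasome genes, vehicle library 1 lay nearer to the treated libraries than the other vehicle libraries did. The summed CPM of the 44 genes was 6002, 5620 and 6106 in TP-3654 libraries 1 to 3, against 5778, 6504 and 6612 in vehicle libraries 1 to 3, so the groups overlapped. Over the 17 genes sharing at most 1% of their words the sums were 2245, 2110 and 1967 CPM with TP-3654, against 2197, 2449 and 2426 CPM with vehicle. Vehicle library 3 was the highest of all 6 libraries for 20 of the 44 genes (20.7% of all genes) and vehicle library 2 for 8 (12.5% of all genes). TP-3654 library 3 was the lowest for 22 and the highest for 13, beside 32.3% and 28.9% of all genes, and TP-3654 library 2 was the lowest for 11, beside 7.07% of all genes. Without vehicle library 1, 6 proteasome genes were lower at an unadjusted p below 0.05, beside 5.02% of all genes, 0 were higher, beside 8.88%, and 0 were called.

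In the alpha ring, the median log2 fold change was -0.01 over 8 genes, and -0.17 without TP-3654 library 3. Psma6, the ring member with the smallest p, measured 192, 179.6 and 161 CPM in TP-3654 libraries, against 196, 210.02 and 218 CPM in vehicle libraries. All treated libraries were below all vehicle libraries, and the log2 fold change was -0.23 (SE 0.11, adjusted p = 0.323). Psma1 measured 174, 173 and 181 CPM in TP-3654 libraries, against 187, 212 and 192 CPM in vehicle libraries, without overlap, at -0.16 (SE 0.10). Psma7, the standard form of the ring position that Psma8 fills in testis, measured 258, 245 and 234 CPM in TP-3654 libraries, against 254, 279 and 291 CPM in vehicle libraries, where only vehicle library 1 fell among the treated values. Psma8, known from the testis proteasome, was sparse and varied among libraries, at 7.82, 1.47 and 31.9 CPM in TP-3654 libraries, against 1.26, 4.46 and 1.92 CPM in vehicle libraries. Its treated libraries held both the highest values and 1 of the lowest, and its log2 fold change of 2.43 had an SE of 1.24 (adjusted p = 0.384) and was 0.86 without TP-3654 library 3. Psma2 (-0.02) and Psma4 (-0.01) were the other alpha genes, with overlapping groups and SEs of 0.14 and 0.13. Without TP-3654 library 3 they lay at -0.17 and -0.11.

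In the beta ring, the median was -0.17 over 7 genes, both with all libraries and without TP-3654 library 3, and 6 of 7 were below 0. None of the 3 catalytic genes passed the test. Psmb5, with the chymotrypsin-like site that clinical proteasome inhibitors bind, measured 89.6, 82.6 and 85.8 CPM in TP-3654 libraries, against 85.9, 102 and 106 CPM in vehicle libraries. The log2 fold change was -0.19 (SE 0.11, adjusted p = 0.413), with vehicle library 1 inside the treated range. Psmb6, with the caspase-like site, measured 156, 141 and 145 CPM in TP-3654 libraries, against 139, 168 and 189.8 CPM in vehicle libraries, where vehicle library 1 was the lowest of all. Psmb7, with the trypsin-like site, measured 54.4, 56.7 and 61.4 CPM in TP-3654 libraries, against 54.6, 60.2 and 61.2 CPM in vehicle libraries and averaged 57.5 ± 3.604 CPM with TP-3654 and 58.7 ± 3.54 CPM with vehicle (SD, n = 3 each), so its groups overlapped throughout. Its log2 fold change was -0.03, and -0.09 without TP-3654 library 3. Nek6, on the opposite strand, overlaps 11.8% of the exonic bases of Psmb7.

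Psmb4, a beta subunit without a cutting site, had the smallest p of the 44 genes. It measured 205, 202 and 157 CPM in TP-3654 libraries, against 219.9, 232 and 249 CPM in vehicle libraries, so every treated library was lower and TP-3654 library 3 the lowest. It averaged 188 ± 26.9 CPM with TP-3654 and 233 ± 14.5 CPM with vehicle (SD, n = 3 each), which gave -0.31 on the log2 scale (SE 0.13, edgeR adjusted p = 0.273). None of its 31-base words occurs elsewhere, and without TP-3654 library 3 the log2 fold change was -0.21. Psmb2, a further non-catalytic subunit without shared words, measured 170.5, 163 and 141 CPM in TP-3654 libraries, against 172, 199 and 189.6 CPM in vehicle libraries, also without overlap. Its log2 fold change was -0.24 (SE 0.12, adjusted p = 0.324), and -0.17 without TP-3654 library 3. Psmb1 (-0.10) and Psmb3 (0.02) completed the ring, and the sole value above 0 was that of Psmb3, which was -0.17 without TP-3654 library 3.

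**Figure D4:**
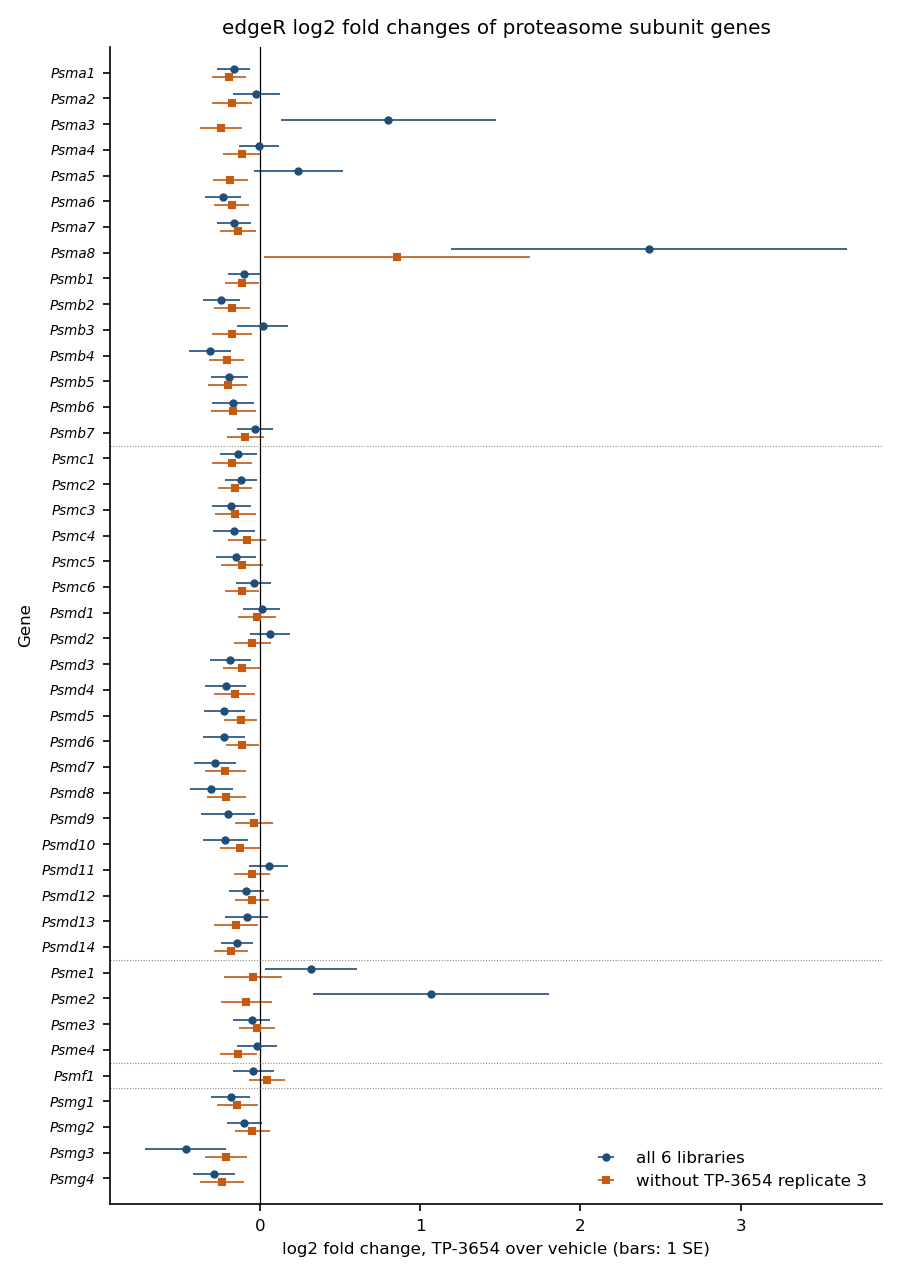
Log2 fold change of TP-3654 over vehicle for 44 proteasome genes with bars of 1 SE, from edgeR with all 6 libraries (circles) and without TP-3654 replicate 3 (squares). Most estimates lie between -0.31 and 0.06, and the circles of Psma3, Psma5, Psme1 and Psme2 lie right of 0 while their squares lie left of it.

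The ATPases of the base, which thread substrates into the core, had a median of -0.14, and all 6 were below 0 with adjusted p between 0.463 and 0.870. Psmc3 measured 248, 223 and 218 CPM in TP-3654 libraries, against 229, 263 and 288 CPM in vehicle libraries, where vehicle library 1 was inside the treated range. Psmc4 measured 199.97, 183 and 156 CPM in TP-3654 libraries, against 181, 203 and 218 CPM in vehicle libraries, and Psmc5 measured 164, 143 and 139 CPM in TP-3654 libraries, against 142, 169 and 182 CPM in vehicle libraries, both with vehicle library 1 inside the treated range. Psmc2 measured 139.96, 130.1 and 143 CPM in TP-3654 libraries, against 141, 153 and 154 CPM in vehicle libraries, with vehicle library 1 below the highest treated value. The log2 fold changes were -0.18, -0.16, -0.15 and -0.12 in that order, with SEs from 0.10 to 0.13, and that of Psmc4 was -0.08 without TP-3654 library 3. Psmc1 (-0.13) and Psmc6 (-0.04, or -0.11 without TP-3654 library 3) were the remaining ATPase genes.

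The 3 non-ATPase genes of the base stood at different values. The large scaffold genes Psmd1 and Psmd2 had log2 fold changes of 0.01 and 0.06 (-0.02 and -0.05 without TP-3654 library 3), while Psmd4, which binds ubiquitin chains, had -0.21 (SE 0.13, adjusted p = 0.412). The chaperones that assemble the base, Psmd5, Psmd9 and Psmd10, lay at -0.22, -0.20 and -0.22 with all libraries, and at -0.12, -0.04 and -0.12 without TP-3654 library 3. Psmd5 measured 97.5, 98.9 and 76.1 CPM in TP-3654 libraries, against 111, 108 and 98.5 CPM in vehicle libraries, and 1 treated library lay just above the lowest vehicle library. Psmd9 shares 25.5% of its exonic bases with Gm26745 on the opposite strand, so its counts are uncertain. Smaller overlaps hold for other proteasome genes, such as Psmb5 (12.1%, Mir686, same strand), Psmd13 (10.1%, Sirt3, opposite strand) and Psmc3 (8.25%, Slc39a13, opposite strand).

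The lid had a median log2 fold change of -0.16 over 8 genes, of which 7 were below 0. Psmd8, a structural subunit, measured 202, 202 and 160.2 CPM in TP-3654 libraries, against 204, 239 and 253 CPM in vehicle libraries. The groups did not overlap, although vehicle library 1 was less than 2 CPM above the nearest treated library. Psmd8 averaged 188 ± 24.1 CPM with TP-3654 and 232 ± 25.2 CPM with vehicle (SD, n = 3 each), which gave -0.30 on the log2 scale (SE 0.13, adjusted p = 0.294). Psmd7, the partner of the lid deubiquitinase, measured 230.3, 221 and 191 CPM in TP-3654 libraries, against 224, 267 and 291 CPM in vehicle libraries, with vehicle library 1 inside the treated range, at -0.28 (SE 0.13). Psmd6 measured 128, 126 and 96.3 CPM in TP-3654 libraries, against 132, 144 and 133 CPM in vehicle libraries, at -0.22 (SE 0.13), and -0.11 without TP-3654 library 3. Psmd14, the deubiquitinase that clips ubiquitin chains off substrates, was at -0.14 (SE 0.10), without overlap between groups. Psmd3, Psmd12, Psmd13 and Psmd11 lay at -0.18, -0.08, -0.08 and 0.06, and at -0.11, -0.05, -0.15 and -0.05 without TP-3654 library 3.

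Over the whole lid and base, 17 of 20 genes were below 0 with a median of -0.15, against 11 of 15 core genes with a median of -0.10. Without TP-3654 library 3 these counts were 20 of 20 (median -0.12) and 14 of 15 (median -0.17). By library, the median lid and base gene stood at 95.5%, 89.7% and 84.2% of its vehicle mean in TP-3654 libraries 1 to 3, against 93.6%, 102.9% and 102.8% in vehicle libraries 1 to 3. The median core gene stood at 92.7%, 86.6% and 94.0% with TP-3654, against 92.4%, 102.6% and 104.6% with vehicle. In both classes vehicle library 1 lay inside the treated range. Fitted among genes with at most 1% of shared words, with all 6 libraries, the medians were -0.20 for the core and -0.18 for the lid and base. The core was then represented only by Psma1, Psmb2, Psmb4 and the sparsely counted Psma8. The order of these classes thus changed with TP-3654 library 3 and with the genes that entered, and no difference between the classes was tested.

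**Figure D5:**
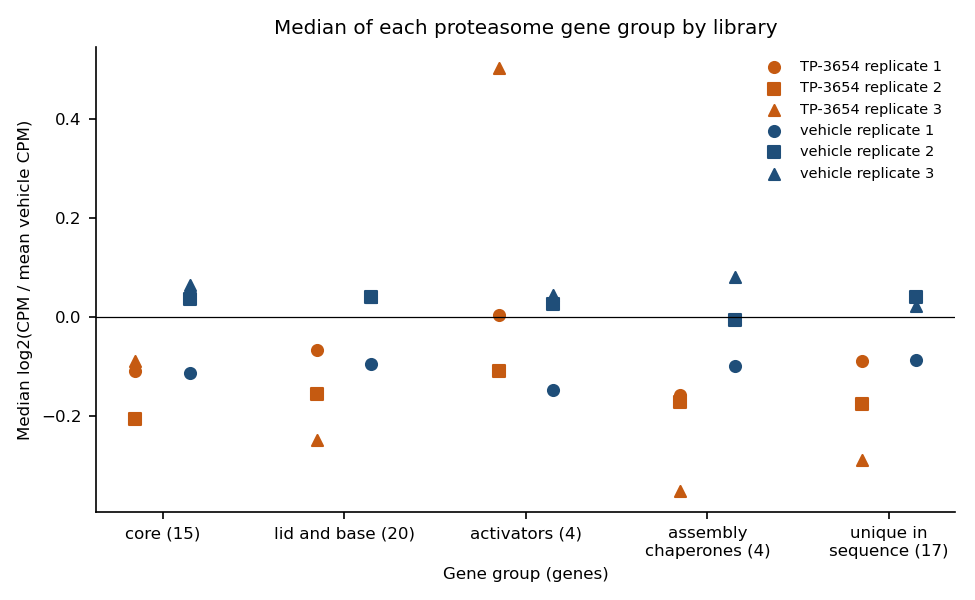
Median log2 ratio of CPM to the vehicle mean over the core, lid and base, activator and assembly chaperone genes and over the 17 genes with at most 1% of shared words, 1 point per library, with TP-3654 libraries left of vehicle libraries and marker shape giving the replicate number. The activator median of TP-3654 replicate 3 stands at 0.50, and the vehicle replicate 1 medians of the 5 sets plotted lie between -0.15 and -0.09.

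The activators were the sole class with a median above 0, at 0.15, and it was -0.06 without TP-3654 library 3. Psme1, the alpha subunit of the interferon-inducible ring, measured 209, 196 and 369 CPM in TP-3654 libraries, against 163, 199 and 259.9 CPM in vehicle libraries. TP-3654 library 3 was the highest of all, and the treated libraries 1 and 2 lay inside the vehicle range. The log2 fold change was 0.32 (SE 0.29, adjusted p = 0.575), and -0.04 without that library. Its partner Psme2 measured 38.96, 35.5 and 172 CPM in TP-3654 libraries, against 32.3, 39.9 and 45.3 CPM in vehicle libraries, with the same library highest and the log2 fold change at -0.08 without it. Psme3, the nuclear activator, had none of its words shared and measured 323, 299 and 286 CPM in TP-3654 libraries, against 309, 342 and 289 CPM in vehicle libraries. Psme4, which caps proteasomes in the nucleus and in sperm cells, measured 67.97, 63.6 and 80.9 CPM in TP-3654 libraries, against 76.7, 73.04 and 65.2 CPM in vehicle libraries. The groups of Psme3 and Psme4 overlapped, at -0.05 (SE 0.11) and -0.02 (SE 0.13), or -0.02 and -0.13 without TP-3654 library 3. Psmf1, which encodes an inhibitor of the isolated core, measured 70.2, 59.95 and 52.7 CPM in TP-3654 libraries, against 64.5, 62.2 and 61.4 CPM in vehicle libraries, at -0.04 (SE 0.13), again with overlap, and 0.04 without TP-3654 library 3.

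All 4 core assembly chaperones had a log2 fold change below 0, with a median of -0.23 that was -0.18 without TP-3654 library 3. Psmg1 and Psmg2 form a dimer that holds early alpha ring intermediates, and Psmg3 and Psmg4 a second one. Psmg1 measured 54.5, 51.7 and 47.4 CPM in TP-3654 libraries, against 50.8, 61.9 and 61.6 CPM in vehicle libraries, where vehicle library 1 was inside the treated range. Psmg2 measured 59.1, 60.5 and 52.5 CPM in TP-3654 libraries, against 59.1, 60.1 and 64.8 CPM in vehicle libraries, at -0.10 (SE 0.11), and -0.05 without TP-3654 library 3.

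Psmg3 measured 38.7, 39.98 and 19.7 CPM in TP-3654 libraries, against 42.01, 43.5 and 50.1 CPM in vehicle libraries, without overlap, and TP-3654 library 3 stood well below the rest. It lay at -0.46 on the log2 scale (SE 0.25, adjusted p = 0.377) and at -0.21 without that library. In the annotation 9.68% of its exonic bases lie under Gm26938 on the same strand. Psmg4 measured 25.1, 26.8 and 22.7 CPM in TP-3654 libraries, against 28.4, 30.7 and 31.99 CPM in vehicle libraries, also without overlap. It averaged 24.9 ± 2.08 CPM with TP-3654 and 30.4 ± 1.83 CPM with vehicle (SD, n = 3 each), which gave -0.29 on the log2 scale (SE 0.13, adjusted p = 0.306), and -0.23 without TP-3654 library 3.

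Levels between genes were compared per kilobase of 1 annotated transcript, among genes with at most 1% of shared words. The beta subunit Psmb2 had 184 CPM per kilobase with TP-3654 and 217 with vehicle, and Psmb4 had 159 CPM per kilobase with TP-3654 and 197 with vehicle. The lid gene Psmd7 had 136 CPM per kilobase with TP-3654 and 165 with vehicle, the alpha gene Psma1 had 147 CPM per kilobase with TP-3654 and 164 with vehicle, and the ATPase Psmc4 had 125 CPM per kilobase with TP-3654 and 139 with vehicle. The chaperones were lower, as Psmg1 had 49.03 CPM per kilobase with TP-3654 and 55.6 with vehicle and Psmd10 had 18.9 CPM per kilobase with TP-3654 and 21.9 with vehicle. The inhibitor Psmf1 had 16.01 CPM per kilobase with TP-3654 and 16.5 with vehicle, and the large cap Psme4 had 10.9 CPM per kilobase with TP-3654 and 11.04 with vehicle. The classes overlapped: the ATPase Psmc6 had 47.1 CPM per kilobase with TP-3654 and 48.4 with vehicle, below Psmg1, the activator Psme3 had 114 CPM per kilobase with TP-3654 and 118 with vehicle, and the core gene Psma8 had 8.11 CPM per kilobase with TP-3654 and 1.51 with vehicle.

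The interferon-induced beta subunits, which replace the catalytic ones in immune cells, were set beside these genes. Psmb8 measured 409, 429 and 415 CPM in TP-3654 libraries, against 393, 491 and 583 CPM in vehicle libraries, and Psmb9 measured 175, 179 and 165 CPM in TP-3654 libraries, against 183, 202 and 251 CPM in vehicle libraries. Psmb9 was lower in every treated library than in any vehicle library, at -0.29 (SE 0.13, adjusted p = 0.299), and Psmb8 was at -0.23 (SE 0.15) with vehicle library 1 lowest. Psmb10 was at -0.10 (SE 0.14).

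Lists of related genes gave 0 calls with edgeR. The counts below stand beside 10.2% of all genes higher and 6.84% lower at an unadjusted p under 0.05 in edgeR. Without TP-3654 library 3 these shares were 7.28% and 5.27%. Of 22 tested proteasome cofactors and export factors (23 listed), 1 was higher and 1 lower at an unadjusted p under 0.05, with a median log2 fold change of -0.07. The lower one was Sem1, a small lid subunit, at 126, 129 and 118 CPM in TP-3654 libraries, against 137, 155 and 176 CPM in vehicle libraries and -0.33 (SE 0.12, adjusted p = 0.227). The higher one was Zfand5, a ubiquitin-binding activator of the proteasome, at 0.31 (SE 0.13), and 0.22 without TP-3654 library 3, where it missed the threshold. Akirin2, which guides proteasomes into the nucleus, was at -0.36 (SE 0.16). Of 18 genes that control proteasome gene transcription, 2 were higher at an unadjusted p under 0.05, Stat3 at 0.33 and the repressor Bach1 at 0.35, with a list median of -0.02. Without TP-3654 library 3, 0 of the 18 were at that threshold, and Stat3 lay at 0.19 and Bach1 at 0.30. Of 17 ubiquitin precursors, activating enzymes, conjugating enzymes and deubiquitinases, Cyld was higher (0.31) and Ube2k lower (-0.28) at that threshold, with a median of 0.04. Without TP-3654 library 3 the median was -0.07, and 0 were higher and 1 lower at that threshold. The lower gene there was not Ube2k. Cyld lay at 0.19 and Ube2k at -0.19 in that fit, and both missed the threshold. Of 24 tested cytosolic chaperones (25 listed), 0 had an unadjusted p under 0.05 in either direction, with a median of -0.10.

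Promoter windows from RefSeq (GRCm38.p6, 250 bases before to 50 after the annotated start) matched 36 of the 44 genes. Psma8, Psmb1, Psmb2, Psmb7, Psmc3, Psmd3, Psmd7 and Psmg2 had no match. Both strands were searched for TGANNNNGC, a loose form of the core of the antioxidant response element. Nfe2l1 is known to bind that element at proteasome genes under stress. The letters TGANNNNGC occurred for 20 of 36 proteasome genes (55.6%) and for 45.0% of 27025 genes, where a match in any window of a gene counted. They occurred for 8 of 11 core genes, 8 of 17 lid and base genes, 2 of 4 activator genes, 2 of 3 chaperone genes and 0 of 1 for Psmf1. CCAAT occurred in 12 of 36 (33.3%), beside 41.1% of all, and CACGTG in 3 of 36 (8.33%), beside 8.09%. The motifs were counted apart, without regard to overlap. The windows of Psmb4, Psmd8 and Psmg4, the genes with the smallest p in the core, the lid and base, and the chaperones, are shown 5′ to 3′ on the gene's strand, with TGANNNNGC or its reverse complement in capitals.
Psmb4 (chr3:94886909-94887208, minus strand): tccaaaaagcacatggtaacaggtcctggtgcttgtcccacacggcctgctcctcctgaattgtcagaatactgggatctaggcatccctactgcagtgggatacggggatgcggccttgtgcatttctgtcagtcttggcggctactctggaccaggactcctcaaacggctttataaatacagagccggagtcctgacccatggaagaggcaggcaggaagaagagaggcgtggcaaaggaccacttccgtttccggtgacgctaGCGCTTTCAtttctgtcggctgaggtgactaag
Psmd8 (chr7:29180624-29180923, minus strand): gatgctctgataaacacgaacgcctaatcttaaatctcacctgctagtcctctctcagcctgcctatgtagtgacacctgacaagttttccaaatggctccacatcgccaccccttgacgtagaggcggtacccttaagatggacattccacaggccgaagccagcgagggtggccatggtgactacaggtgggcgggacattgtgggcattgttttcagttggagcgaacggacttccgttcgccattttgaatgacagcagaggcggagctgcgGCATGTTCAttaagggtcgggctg
Psmg4 (chr13:34162714-34163013, plus strand): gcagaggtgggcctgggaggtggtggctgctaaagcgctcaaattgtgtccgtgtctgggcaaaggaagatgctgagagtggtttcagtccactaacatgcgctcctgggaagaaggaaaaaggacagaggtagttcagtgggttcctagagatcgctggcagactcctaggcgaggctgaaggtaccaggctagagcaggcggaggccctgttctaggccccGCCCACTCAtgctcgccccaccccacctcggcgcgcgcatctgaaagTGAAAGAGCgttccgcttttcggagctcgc

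Psmb4 and Psmd8 have 1 match each and Psmg4 has 2, and no binding data bear on these letters. The 3 genes share a small downward difference and no call.

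The authors' deposited table of their own comparison gave the same genes a narrower spread. Its log2 fold change was below 0 for 42 of 44 proteasome genes, beside 52.8% of all genes in the authors' deposited table, with a median of -0.19. It called 699 genes (5.32%) and 0 proteasome genes, with 0.147 as their lowest adjusted p in the authors' deposited table. At an unadjusted p under 0.05 the authors' deposited table had 13 proteasome genes lower, beside 10% of all its genes. It had 0 higher, and the share of all its genes that were higher was not taken. For Psma3 and Psme2 the authors' deposited table gave -0.27 and -0.17, where edgeR on the deposited counts gave 0.80 and 1.07. Its mean normalized counts were not those of the count table: the ratio of the authors' mean to that of the counts had a median of 0.879 over all genes, and was 2.07 for Psmb7, 1.28 for Psme2 and 0.665 for Psmd11. The counts behind the authors' deposited table were not analysed here.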

How the data were processed

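Raw counts per Entrez gene were deposited by the authors for 3 TP-3654 and 3 vehicle libraries of LSK cells. The authors' deposited comparison table holds, per the file headers, a mean normalized signal, a log2 fold change, scores (its standard error and Wald statistic) and p-values. The submitters' processing notes list HISAT2 2.1.0, SAMtools 1.9.0 and DESeq2, with mm10 and GRCm38 as builds. What counted the reads, with which annotation and strand setting, is not given in the sources used here, so antisense and overlapping genes cannot be told apart.

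The counts were fitted in edgeR 4.0.16 (R 4.3.3) with TMM factors, filterByExpr, a robust quasi-likelihood F test and Benjamini-Hochberg adjustment over 13149 genes, called under 0.05. The filter removed 2696 genes holding 0.0674% of counts. The SE divides the size of the log2 fold change by the root of F. Symbols came from the authors' table. Scripts were tested on simulated data. Alternatives were DESeq2 1.42.0, limma-voom (limma 3.58.1), other scalings and filters, a replicate block, each library left out, genes with at most 1% of 31-base words shared, and Psme2 summed with Psme2b; the last 2 were chosen after seeing the data. Sequence sharing used GENCODE M21 transcripts (GRCm38).

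Genes named with values in each library were the catalytic subunits, the Psme, Psmf and Psmg genes, and the up to 4 smallest p-values in each other family. Psma3 and Psma5 were added after their values were seen. Members and lists were chosen with earlier results of these data known. P-values weigh the group difference against the spread between 3 samples per group, which edgeR estimates with information shared across genes.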

Additional observations from a re-analysis of the deposited data

How the results depend on the processing

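Over all alternatives run, 0 proteasome genes were called, and the median over proteasome genes stayed below 0, from -0.19 without vehicle library 1 to -0.10 without vehicle library 3. Genes called in all, 0 with edgeR, numbered 657 with DESeq2, 5 with no low-count filter, 39 with at least 10 counts in each library, 41 among genes with at most 1% of words shared, 1 among those without TP-3654 library 3, and 0 to 31 leaving out 1 library (31 without TP-3654 library 3, 18 without TP-3654 library 2 and 7 without TP-3654 library 1). Proteasome genes at an unadjusted p under 0.05, 1 in the chosen fit, numbered 4 with DESeq2, 2 with limma-voom, 3 with DESeq2 size factors in edgeR, 2 with no low-count filter, 2 with at least 10 counts in each library, 2 without the robust option, 0 with unique-word genes without TP-3654 library 3, and 0 to 6 leaving out 1 library. These counts pool both directions. With DESeq2 1 was higher and 3 were lower. Without the robust option 1 was higher and 1 lower, as also without TP-3654 library 2. The higher gene was Psma8 each time, and in the other fits with such genes all were lower. For the other scalings and filters and the fit without the robust option, the share of all genes at that threshold was not taken. The core median was -0.20 among unique-word genes and -0.19 among those without TP-3654 library 3, where fewer genes enter. With the replicate block 3 genes were called and 0 proteasome genes had an unadjusted p under 0.05, with a median of -0.14. Same-numbered libraries did not deviate together (correlations -0.01, -0.01 and 0.03). With 3 libraries a group these values cannot show whether the numbers pair them.

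Single genes changed sign in some fits, and the cause was not tested. Leaving out 1 library at a time, the log2 fold change ran from -0.24 (without TP-3654 library 3) to 1.13 for Psma3, from -0.18 (same library) to 0.41 for Psma5, from -0.0425 (same library) to 0.51 for Psme1 and from -0.0828 (same library) to 1.43 for Psme2. It ran from -0.15 to 0.0440 (without TP-3654 library 3) for Psmf1, which was at 0.0323 among unique-word genes without that library. It ran from -0.0894 to 0.0095 (without TP-3654 library 1) for Psmb7, which was at 0.0016 without vehicle library 3. It ran from -0.13 to 0.0544 (without TP-3654 library 2) for Psme4, which was at 0.012 without TP-3654 library 1 and 0.034 without vehicle library 1, and from -0.11 to 0.0043 (without vehicle library 2) for Psme3. Summed with Psme2b, Psme2 was at -0.29, by construction with the copy's counts. The proteasome differences, most of them within 0.31 on the log2 scale, did not pass the adjusted threshold with 3 libraries a group.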

Other observations

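The lid gene Psmd11 and A730017L22Rik, which shares sequence with it, also differed in TP-3654 library 3. A730017L22Rik held 2170, 2576 and 583 counts with TP-3654, against 2336, 2248 and 1916 with vehicle, and Psmd11 held 2035, 2391 and 2204 with TP-3654, against 2385, 2358 and 1916 with vehicle. Psmd11 took 48.4%, 48.1% and 79.1% of the pair's counts with TP-3654, against 50.5%, 51.2% and 50% with vehicle. The pair summed to 195, 192 and 142 CPM with TP-3654, against 186, 207 and 176 CPM with vehicle, lowest in TP-3654 library 3. These pairs were looked at after the values were seen, and the cause was not tested.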
